A study of Mus musculus with 48 samples.

Results

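The cytosolic ribosomal protein genes were followed through 3 tables of gene counts from mouse dendritic cell cultures and their relatives. Members were taken by symbol: large-subunit genes written Rpl with a number, small-subunit genes written Rps with a number, the stalk genes Rplp0, Rplp1 and Rplp2, and Rpsa, with an optional A, X or L after the number. The rule used no measured value. It found 79 of 21637 genes in the stimulation table, and 78 of 13963 and 78 of 11278 genes in the sorted-population and perturbation tables, where Rpl10l is not among the rows. The mitochondrial ribosomal proteins, written Mrpl and Mrps, fall outside it.

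A cytosolic ribosome joins a small (40S) subunit, which reads the messenger RNA, to a large (60S) subunit, which links amino acids. Each subunit carries many small proteins made from abundant, coordinately expressed transcripts. In vertebrates these transcripts start at a C within a run of C and T bases, the TOP motif, through which mTORC1 controls their translation, and MYC is known to raise ribosome production in growing cells. Activated dendritic cells change from dividing or surveying cells into cells that secrete cytokines and present antigen.

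RNA was sequenced from transcript 3′ ends, so a gene's count reflects mainly molecules and not length. Bone marrow of C57BL/6J female mice aged 6 to 10 weeks was cultured with GM-CSF, giving cells that the labels call moDC, or with Flt3L, giving cells called pDC; each culture is a mixture, and no sort is stated for it. The stimulation experiment has 32 libraries, 16 of each culture: 1 untreated, LPS or PAM3CSK (PAM) at 100 ng/ml or CpG B at 5 uM for 1, 2, 4 and 6 h, and CpG A at 5 uM for 1, 4 and 6 h. The perturbation table holds moDC infected with a control hairpin or one against Cebpb (by the sample titles; the table heads these columns cDC), pDC infected with a control hairpin or one against Irf8, and pDC with a GFP control or a Cebpb overexpression vector, all from C57BL/6 marrow. The sorted table holds 9 populations used here. From bone marrow came MP (Lin-, Flk2 low, c-kit high), MDP (Lin-, Flk2 high, c-kit high), CDP (Flk2 high, c-kit intermediate to low), preDC (CD11c+, CD11b+, CD45RA-) and the Ly6c+ and Ly6c- monocytes (CD3-, B220-, CD115+ and either Gr1+ or Gr1-). From spleen came pDC (mPDCA+), DN DC (CD43+, CD11b+, CD11c+, negative for CD8 and CD4) and CD8+ DC (the same gate with CD8+). Their strain labels count up from C57BL/7 to C57BL/16.

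No condition was repeated, so a p-value here rests on how libraries of different conditions scatter, and in the bulk cultures a change in cell makeup and a change of RNA per cell cannot be told apart. Library totals were 255062 to 748152 counts (stimulation), 39447 to 262557 (perturbation) and 873734 to 5148680 (sorted). The summed level of 12 pDC markers was 3590 to 6478 counts per 1000000 (CPM) in pDC cultures and 504 to 2474 CPM in moDC cultures. The 12 monocyte and macrophage markers summed to 13649 to 35269 CPM in moDC cultures and 2270 to 7033 CPM in pDC cultures. In the perturbation table the pDC libraries held 1096 to 3853 CPM of the pDC markers and 7200 to 10184 CPM of the monocyte and macrophage markers. The moDC libraries there held 877 to 1119 and 25059 to 25356.5 CPM. Sums of 9 neutrophil markers ran from 2763 to 29274 CPM in those pDC libraries and from 9256 to 25795 CPM in those moDC libraries. The part of cell makeup in differences within the perturbation pairs was not tested. In the sorted table the library labelled preDC held 16015 CPM of the pDC markers and 1291 CPM of 11 conventional DC markers, against 20988 and 4386 CPM in sorted pDC.

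The RefSeq promoter table (GRCm38.p6, 250 bases before to 50 after the start) held 60 of the 79 genes. The start-site windows of 5 genes that recur below are shown because a TOP run would sit there. Rps27l and its near relative Rps27 differed most in mean level among such pairs in the stimulation table (330 and 3.08 CPM). They averaged 371 and 309 CPM in the perturbation table and 171 and 107 CPM in the sorted table. The others are Rpl27a, lower late in stimulated pDC, Rpl4, the most abundant member, and Rack1 (Gnb2l1 in the tables). Rack1 is the gene outside the rule whose level followed the members most closely. Each window holds 30 bases, 15 before the annotated start and 15 from it on, with the longest run of C and T in capitals.
Rps27l, chr9:66946071-66946100, plus strand: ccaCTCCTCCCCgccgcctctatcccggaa
Rps27, chr3:90213634-90213663, minus strand: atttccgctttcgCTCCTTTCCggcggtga
Rpl27a, chr7:109519180-109519209, plus strand: gacttcgtgagCTCCTCCCTTTTCCCTTTC
Rpl4, chr9:64173372-64173401, plus strand: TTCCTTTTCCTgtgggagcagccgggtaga
Rack1, chr11:48800345-48800374, plus strand: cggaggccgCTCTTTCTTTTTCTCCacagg
The longest run in the window was 9 bases for Rps27l and Rps27, 19 for Rpl27a, 11 for Rpl4 and 16 for Rack1. The annotated start lies within the run for Rps27, Rpl27a and Rack1 and after its end for Rps27l and Rpl4. A run of at least 8 was present in 24 of the 60 members (40.0%) and in 11.9% of all 27025 promoters, 1 per gene. The letters CTTCCGG, as bound by ETS-family factors, stood on either strand in 41.7% of member promoters and 9.12% of all. The CGCG element, a palindrome, was in 8.33% of members and 0.496% of all, AAGATGGC (either strand) in 6.67% and 2.88%, and TATAAA (either strand) in 8.33% and 14.2%. Overlaps between motifs were not removed, and a match is a description of these letters only.

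The tables see the members to different degrees. Under stimulation 32 of 79 members averaged under 20 CPM, against 5 of 78 in the sorted and 2 of 78 in the perturbation table. Of the 31 low members that all tables list, 25 averaged at least 100 CPM in sorted cells and 26 in the perturbation libraries. Rps27a, which is made as a fusion with ubiquitin, had a median of 5.26 CPM in the stimulation table (72 counts over 32 libraries), 485 CPM in sorted cells and 573 CPM in the perturbation table. Rps6, the small-subunit protein phosphorylated by S6 kinases, had a median of 15.7 CPM in the stimulation table, 796 CPM in sorted cells and 384 CPM in the perturbation table. Values are whole numbers throughout the stimulation table, whereas 92.6% of member values in the sorted table and 89.96% in the perturbation table are not whole, against 15.8% and 10.2% over all genes. These medians stand side by side to show which members each table detects; no difference in level was drawn between tables, and the part of read assignment in these differences was not tested.

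A few genes carried much of the stimulation signal: the 5 most abundant held 33.1% of all member counts. They were Rpl4, which lines the exit tunnel of the large subunit, Rps21 of the small subunit, Rplp0, the base of the stalk that recruits elongation factors, Rps3, at the entry channel for messenger RNA, and Rpl22 of the large subunit. The mean levels over 32 libraries were 2801 CPM for Rpl4, 1980 for Rps21, 1767 for Rplp0, 1574 for Rps3 and 1529 for Rpl22.

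Ribosomal protein genes took a smaller part of the RNA in moDC than in pDC cultures. The summed share of a library's counts was 2.25% ± 0.244 (SD, n = 16 conditions) in moDC and 3.58% ± 0.514 in pDC. It ran from 1.93% to 2.73% in moDC and from 2.53% to 4.21% in pDC, so the ranges overlapped slightly. Within each of the 16 conditions the moDC library was lower, by 1.33 percentage points on average (exact two-sided paired permutation test over conditions, p = 3.05e-05, the smallest this design gives). As a share of the TMM effective library size, which takes out shifts caused by a few abundant genes, the means were 2.44% and 3.26% and all 16 conditions again ran the same way. The summed share of the small subunit was 0.861% to 1.23% in moDC and 1.30% to 1.99% in pDC, with no overlap. The large subunit's share was 1.05% to 1.497% in moDC and 1.23% to 2.28% in pDC. The subunits were not tested against each other.

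**Figure D1:**
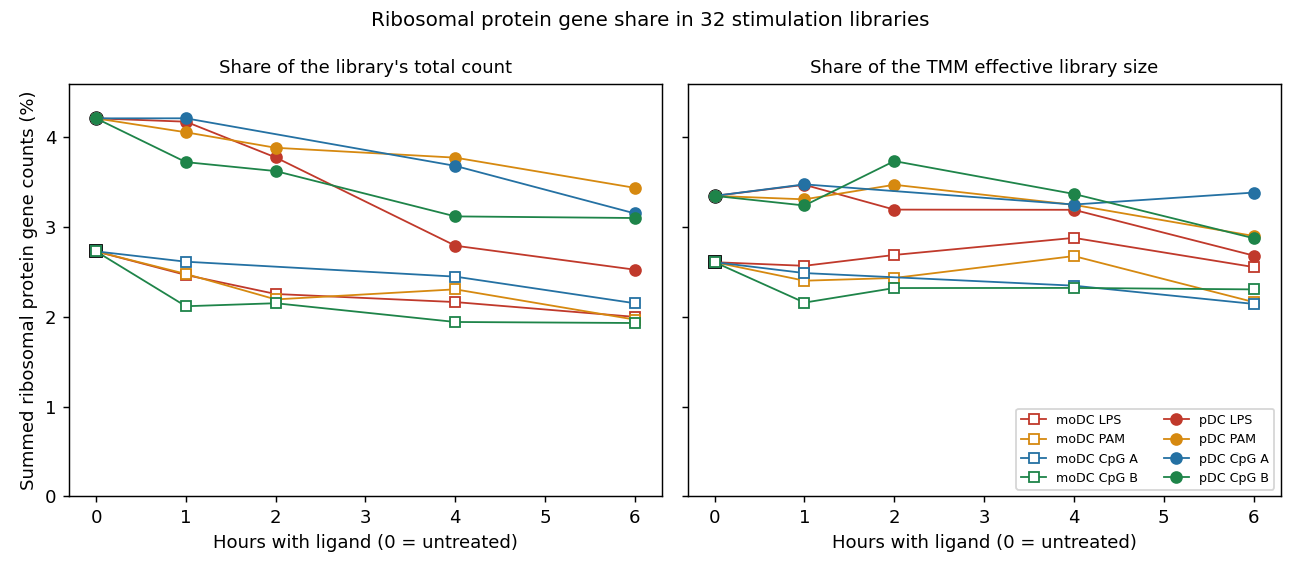
Summed ribosomal protein gene counts (%, y axis) by hours with ligand (x axis, untreated at 0) in moDC (open squares) and pDC (filled circles), coloured by ligand, 1 library per point. The left panel gives the share of total counts, with the pDC libraries from 4.21% down to 2.53% and the moDC libraries from 2.73% down to 1.93%; the right panel gives the share of the TMM effective library size, where pDC means go from 3.38% at 1 h to 3.11% late and moDC means from 2.40% to 2.42%.

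Gene by gene, 54 members passed the filter (at least 20 CPM in at least 4 libraries) and 25 did not. Of the 54, 34 were lower in moDC and 1 was higher at a Benjamini-Hochberg adjusted p below 0.05 (edgeR quasi-likelihood test, condition as a block), and none of the 34 reached a fold of 2. Over all 8056 genes tested, 31.5% were called lower and 27.2% higher, and 9.93% were lower with a fold of at least 2. The median log2 fold change was -0.44 for the members and -0.08 for all genes. Scaling by column totals, which moves the median of all genes to -0.32, called 45 members lower (46.7% of all genes) and 1 higher (18.8%). With only the 4 and 6 h conditions 22 of 52 members were called lower (21.4% of all genes) and 1 higher (22.8%). The large subunit had 19 of 32 genes lower with a median of -0.37, and the small subunit 15 of 22 lower with a median of -0.50. In 25 of the 54 the moDC level in CPM was the lower in all 16 conditions, as it was for 10.5% of all genes tested. Of the 54, 6 passed the filter through the pDC libraries alone, with fewer than 4 moDC libraries at 20 CPM, and 3 of the 34 calls (Rpl3, Rpl5 and Rpl6) are among them; they were tested because of their pDC levels, so those 3 calls are not independent of the filter. Rpl6 was named after its value was seen.

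Of the 54 members, 6 had every moDC library below every pDC library, against 2.61% of all genes tested, and 0 had every moDC library above every pDC library (3.41% of all genes). All 6 belong to the small subunit, and Rps15, Rps3, Rps21 and Rps9 are among them.

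Rps21 ran from 1137 to 1661 CPM in moDC and from 1931 to 3103 CPM in pDC, with medians of 1372 and 2523. Rps3 ran from 878 to 1414 CPM in moDC and from 1503 to 2427 CPM in pDC, with medians of 1135 and 2009. Their log2 fold changes were -0.65 ± 0.070 and -0.60 ± 0.075 (edgeR adjusted p = 6.96e-09 and 8.8e-08). Neither gene's groups overlapped.

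Among large-subunit genes, Rpl35a had the lowest fold change. One of the genes altered in human Diamond-Blackfan anemia, it had a median of 81.2 CPM in moDC (42.8 to 117.4) and 179 CPM in pDC (116 to 240), so that the ranges met only at their ends. Its log2 fold change was -0.85 ± 0.104 (edgeR adjusted p = 7.65e-08). Rpl18 had medians of 39.4 and 81.5 CPM with overlapping ranges (log2 fold change -0.72 ± 0.166, edgeR adjusted p = 0.000529). Rpl5, which binds 5S ribosomal RNA and, when free, the p53 regulator Mdm2, was scarce, with medians of 7.86 CPM in moDC and 16.3 CPM in pDC and 59 and 104 counts over 16 libraries each. Rpl3, which reaches toward the peptidyl transferase centre, had medians of 11.7 and 25.6 CPM. Both passed the filter through pDC, so their values are a description.

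Of the stalk genes, Rplp0 and Rplp2 were called lower in moDC and Rplp1 was not. Rplp0 had a median of 1396 CPM in moDC (1131 to 1650) and 2024 CPM in pDC (1408 to 2901), a log2 fold change of -0.34 ± 0.079 (edgeR adjusted p = 0.000614). Rplp2 had medians of 291 and 496 CPM and a log2 fold change of -0.52 ± 0.102 (edgeR adjusted p = 9.01e-05). Rplp1, their partner in the stalk, had medians of 769 and 986 CPM, was lower in 14 of 16 conditions in CPM and did not pass the test (log2 fold change -0.09 ± 0.077, adjusted p = 0.315). The differences between these genes' changes were not tested.

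Several other members gave no call. Rpsa, also known as the laminin receptor, had medians of 144 CPM in moDC and 185 CPM in pDC, with a log2 fold change of -0.02 ± 0.133 (edgeR adjusted p = 0.928). Rpl22 had medians of 1267 and 1811 CPM (log2 fold change -0.14 ± 0.080, adjusted p = 0.13), and Rps6 gave -0.43 ± 0.215 on few counts (adjusted p = 0.0884). Rps6 reached 20 CPM in 1 moDC and 7 pDC libraries, so it passed the filter through pDC and its values are a description. Rpl4 did pass, from a median of 3724 CPM in pDC to 2117 CPM in moDC (log2 fold change -0.54 ± 0.090, adjusted p = 1.03e-05).

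**Figure D2:**
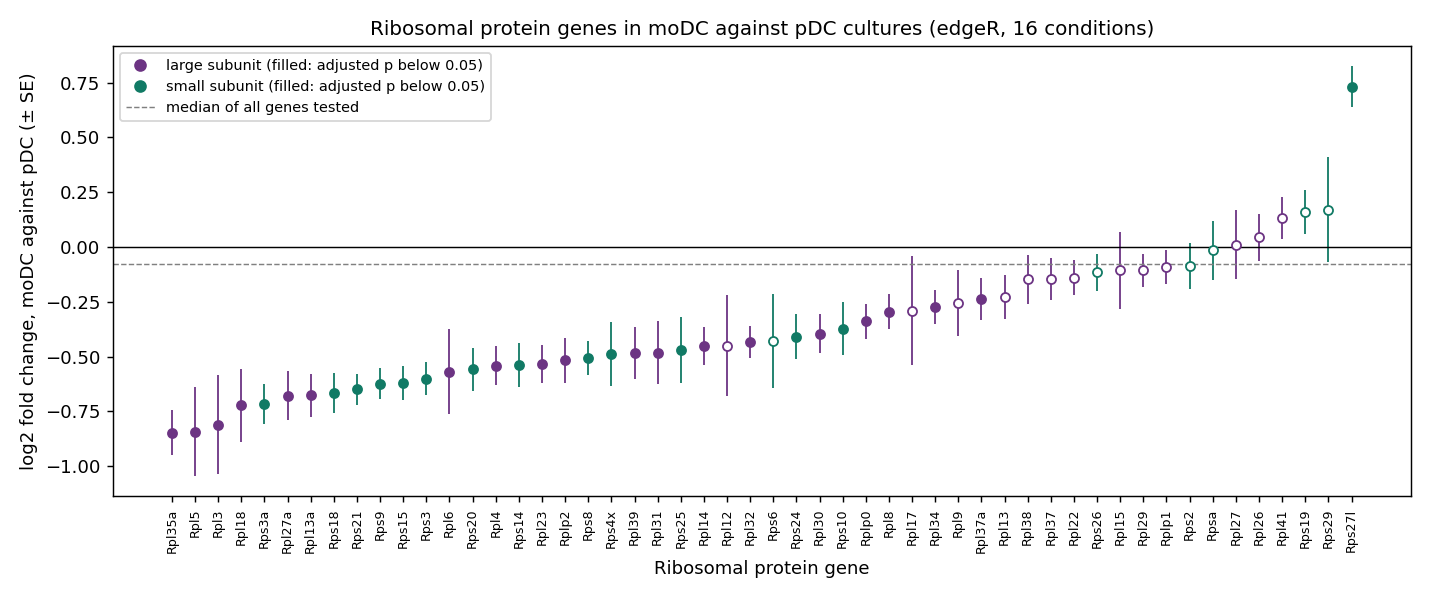
Log2 fold change of moDC against pDC (y axis, ± SE, edgeR) for 52 tested ribosomal protein genes in order, coloured by subunit and filled where the adjusted p is below 0.05; the dashed line marks the median of all genes tested, -0.08. The points run from -0.85 for Rpl35a to 0.73 for Rps27l, and 46 of the 52 lie below 0.

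Rps27l was the only member called higher in moDC among those that passed the filter. It is a paralog of the small-subunit gene Rps27 and is known in human cells as a p53 target. Its level was 315 CPM at the lowest, 374 at the median and 466 at the highest in moDC, against 188, 271 and 399 CPM in pDC. The moDC library was the higher in 15 of 16 conditions, the exception being CpG B at 6 h with 369 CPM in moDC and 399 CPM in pDC. Its log2 fold change was 0.73 ± 0.093 (edgeR adjusted p = 1.54e-07), with a call in the same direction under every alternative run for this comparison. Rps27 itself was close to undetected in this table, with 41 counts over 32 libraries against 4521 for Rps27l, and was not tested with the filter.

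The other paralogs kept outside the filter. Rpl3l, described as a striated muscle relative of Rpl3, had 100 counts over the moDC libraries (2.77 to 22.4 CPM) and 16 counts over the pDC libraries (0 to 7.84 CPM). Without the filter it was higher in moDC (log2 fold change 2.54 ± 0.328, edgeR adjusted p = 1.83e-08), the opposite direction to Rpl3. In that fit of 21296 genes, 12.6% of genes were called higher and 48.7% lower, and of the 25 members that the filter had removed 1 was higher, 8 lower and 16 not called. Rpl10l had 8 counts and Rpl39l 47 counts in all, so no level is drawn from them. Rpl10 had 47 counts, and Rpl39 had medians of 143 CPM in moDC and 229 CPM in pDC (log2 fold change -0.49 ± 0.118, adjusted p = 0.000977).

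**Figure D3:**
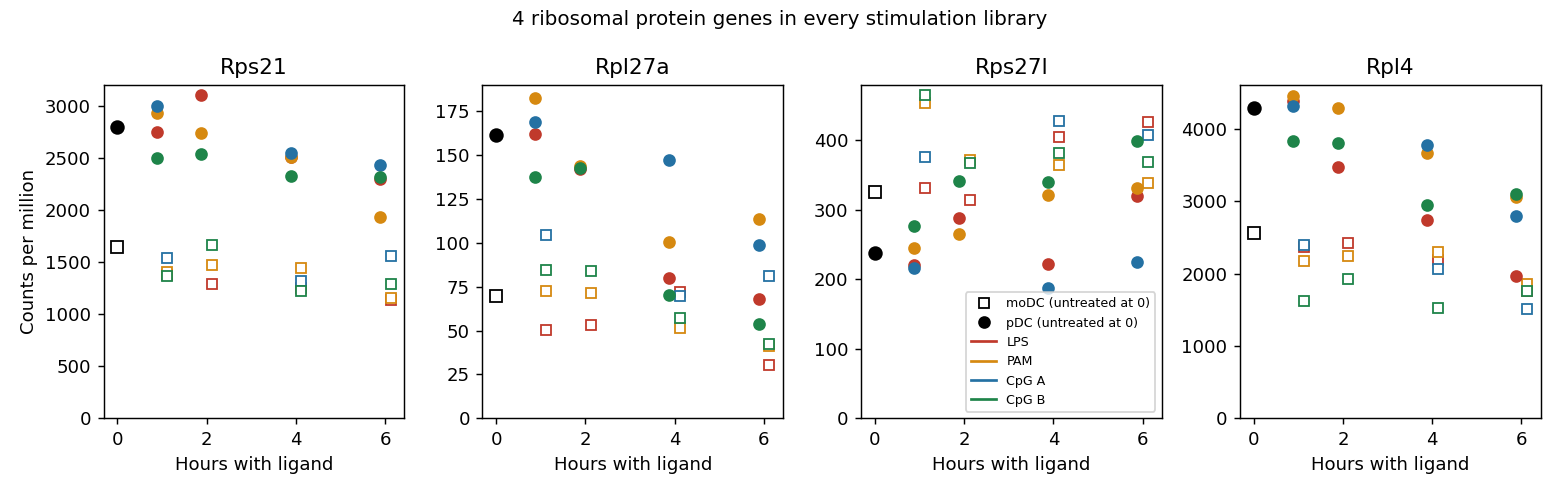
CPM (y axis, from 0) of Rps21, Rpl27a, Rps27l and Rpl4 in each stimulation library by hours with ligand (x axis, untreated at 0); squares are moDC, circles pDC, colours the ligand. Rps21 keeps the cultures apart (highest moDC 1661, lowest pDC 1931 CPM), Rps27l is higher in moDC in 15 of 16 conditions, and Rpl27a in pDC drops from 138 to 182 CPM at 1 h to 53.6 to 147 CPM at 4 and 6 h.

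Genes that work with the ribosome were read from lists, to be set beside the 31.5% of all genes lower and 27.2% higher (46.7% and 18.8% by column totals). Among ribosome biogenesis factors, 22 of 44 tested were lower in moDC and 2 higher (35 and 1 by column totals), with a median log2 fold change of -0.42. Gnl3, a nucleolar GTPase of proliferating cells also called nucleostemin, had medians of 40.8 CPM in moDC and 128 CPM in pDC (log2 fold change -1.20 ± 0.152, edgeR adjusted p = 1.26e-07). Of the elongation and termination list, which includes the kinase gene Eef2k, 7 of 12 genes were lower and none higher (10 and 0 by column totals). Among the lower, Eef2k and Gspt1 stayed under 20 CPM in every moDC library (highest 17.4 and 12.4 CPM). Both were tested because of their pDC levels, so those calls are not independent of the filter. Eef1b2, an exchange factor for eEF1A, had medians of 262 and 553 CPM (log2 fold change -0.84 ± 0.082, edgeR adjusted p = 1.09e-09). Of the initiation factors 13 of 41 were lower, a share near that of all genes, and 6 higher (23 and 1 by column totals). Eif3m, among the lower, was likewise tested through pDC, with a highest moDC level of 18.7 CPM. The lists were not counted again without such genes. Eif4ebp1, an mTORC1-controlled repressor of initiation, was among the higher ones (log2 fold change 0.59 ± 0.117, edgeR adjusted p = 9.57e-05).

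Of the mitochondrial ribosomal protein genes 18 of 64 were higher in moDC, a share near that of all genes, and 3 lower, with a median of 0.11; by column totals 3 were higher and 22 lower, so their direction depends on the scaling. Mrpl42 of the mitochondrial large subunit gave 0.62 ± 0.149 (edgeR adjusted p = 0.000842). Of 14 mTORC1 pathway genes 2 were higher, led by the mTORC1 inhibitor Sesn2 (0.84 ± 0.153, adjusted p = 3.47e-05), and 4 were lower (1 and 5 by column totals). Of 8 tested MYC family genes and partners, 2 were lower and 3 higher (3 and 2 by column totals). Among the higher were Mxd1 (log2 fold change 1.01 ± 0.219, edgeR adjusted p = 0.000277) and Mxi1 (0.77 ± 0.180, adjusted p = 0.000654). Myc had medians of 19.8 CPM in moDC and 44.7 CPM in pDC (log2 fold change -0.91 ± 0.249, edgeR adjusted p = 0.00275). Mycl1, also counted among the lower, had 4.55 and 79.9 CPM. Its values are a description, since its highest moDC level of 17.4 CPM is under the filter.

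The 5 genes outside the rule whose log2(CPM + 1) followed the log2 of the summed share most closely over the 32 libraries were Gnb2l1 (r = 0.984), Eef1b2 (0.977), Nup210 (0.956), Oprm1 (0.955) and Sod1 (0.953). These are Pearson correlations that share the library totals and the difference between the cultures. Gnb2l1 encodes RACK1, which sits on the small subunit; it had medians of 977 CPM in moDC and 1735 CPM in pDC (log2 fold change -0.54 ± 0.070, edgeR adjusted p = 2.53e-07).

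Other features moved with the culture. The 8 stem and progenitor markers summed to 37.2 to 94.98 CPM in moDC and 204 to 827 CPM in pDC, and 9 neutrophil markers to 8077 to 15038 and 1075 to 1828 CPM. Elane, in the neutrophil list, instead followed the members' share (Pearson r = 0.94 over the 32 libraries), so that sum does not describe each marker. The 1088 olfactory receptor genes, which dendritic cells are not known to use, summed to 130 to 342 CPM in moDC and 567 to 3740 CPM in pDC, highest in the pDC library with CpG A at 1 h. The part of these in the member difference was not tested; without the CpG A 1 h condition the mean shares were 2.22% and 3.54%, lower in moDC in 15 of 15 conditions.

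The members' share of total counts was lower late than early with a ligand in both cultures; as a share of the TMM effective size the difference did not pass the test. In moDC the share was 2.73% untreated, 2.12% to 2.61% at 1 h and 1.93% to 2.45% at 4 and 6 h. In pDC it was 4.21% untreated, 3.73% to 4.21% at 1 h and 2.53% to 3.77% at 4 and 6 h. The means at 4 and 6 h against 1 h were 2.11% against 2.42% in moDC and 3.20% against 4.04% in pDC, lower with all 4 ligands (exact permutation within ligands, two-sided p = 0.0123 in each, the smallest that 81 arrangements give). As a share of the TMM effective size the means were 2.42% against 2.40% in moDC (exact permutation p = 0.877) and 3.11% against 3.38% in pDC (exact permutation p = 0.111). The lowest pDC shares came with LPS, 2.79% at 4 h and 2.53% at 6 h. With PAM the pDC share was still 3.77% and 3.44% at those times, and with CpG B it was 3.12% and 3.10%.

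Single members mostly gave no call with time. In moDC, 0 of 47 tested members passed edgeR's test at 4 and 6 h against 1 h, with 1 at an unadjusted p below 0.05 and 0 by DESeq2. By edgeR 8.79% of all genes were higher and 4.17% lower. The members' median log2 change there was -0.02, and column totals called 1 lower (8.37% of all genes). In pDC, 3 of 51 were lower and 1 higher, below the 15.7% and 14.6% of all genes, with a median of -0.12 against -0.02 for all genes. Column totals, which move the pDC median of all genes to -0.21, gave 12 lower (22.7% of all genes).

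The pDC genes that fell were Rpl37 and Rpl27a of the large subunit and Rpsa of the small. Rpl37 was at 859, 535, 849 and 811 CPM after 1 h of CpG A, CpG B, LPS and PAM. It was at 544, 319, 305 and 557 CPM at 4 h and 360, 394, 330 and 461 CPM at 6 h in the same order. Each ligand's late libraries lay below its own 1 h library, though PAM and CpG A at 4 h were above CpG B at 1 h. The log2 change was -0.72 ± 0.157 (edgeR adjusted p = 0.00227).

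Rpl27a was at 169, 138, 162 and 182 CPM at 1 h in that order. It was at 147, 70.1, 79.7 and 100 CPM at 4 h and 99.0, 53.6, 68.2 and 114 CPM at 6 h, lower than at 1 h in each ligand (log2 change -0.70 ± 0.182, edgeR adjusted p = 0.00793). Without LPS or without CpG B it no longer passed, at -0.64 and -0.59. Rpsa was at 215 to 243 CPM at 1 h and 81.3 to 217 CPM at 4 and 6 h, with LPS the lowest and PAM the highest (log2 change -0.56 ± 0.182, adjusted p = 0.0268). It was not called without LPS (-0.34), without CpG B (-0.52), without the filter or by DESeq2 (-0.53).

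Rps27l moved the other way. In pDC it was at 216, 277, 221 and 245 CPM after 1 h of CpG A, CpG B, LPS and PAM, at 188, 340, 223 and 321 CPM after 4 h and at 224, 399, 320 and 331 CPM after 6 h. With CpG A the mean of the late libraries was below the 1 h library. Its log2 change at 4 and 6 h was 0.46 ± 0.166 (edgeR adjusted p = 0.0438), and the call was lost by column totals (0.27), without the filter, with 1 and 2 h as the early libraries (0.37) and without LPS, PAM or CpG B (0.43 to 0.44). In moDC its log2 change was 0.12 ± 0.142 (adjusted p = 0.636).

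No member's time change was shown to differ between the cultures: 0 of 53 passed edgeR's test of the interaction, with 4 at an unadjusted p below 0.05 and 0 by DESeq2. By edgeR 2.31% of all genes were higher and 1.77% lower. The nearest were Rpl37, with a moDC minus pDC difference of 0.65 ± 0.213 (edgeR adjusted p = 0.0886), and Rpsa, with 0.78 ± 0.277 (adjusted p = 0.125). These 2 were named after their values were seen.

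In the late pDC libraries 6 of 43 biogenesis genes were higher, a share near the 14.6% of all genes, and 1 was lower (3 and 1 by column totals). The highest was Utp20, part of the small-subunit processome (log2 change 1.05 ± 0.218, edgeR adjusted p = 0.00163). In moDC 1 of 38 was higher and 2 lower, beside 8.79% and 4.17% of all genes. That 1 was Sbds, which helps release the factor eIF6 from new large subunits; it rose by 1.15 ± 0.212 in moDC (edgeR adjusted p = 0.00156) and by 0.87 ± 0.219 in pDC (adjusted p = 0.00622) on the log2 scale. Myc gave -0.68 ± 0.340 in moDC (adjusted p = 0.217) and -0.29 ± 0.341 in pDC (adjusted p = 0.559). Its antagonists did not move together. Mnt and Mxd4 fell in pDC by 2.26 ± 0.333 and 1.76 ± 0.279 on the log2 scale (edgeR adjusted p = 9.71e-05 and 0.000182). In moDC they fell by 1.04 ± 0.279 and 1.07 ± 0.327 (adjusted p = 0.0189 and 0.0356). Another antagonist, Mxd1, rose in pDC by 1.45 ± 0.433 (edgeR adjusted p = 0.0171). The MYC partner Max rose by 1.43 ± 0.377 in pDC (edgeR adjusted p = 0.00828) and 0.98 ± 0.263 in moDC (adjusted p = 0.0187). Larp1, which binds TOP messages, rose in pDC by 1.03 ± 0.258 (edgeR adjusted p = 0.00602) and gave 0.49 ± 0.178 in moDC (adjusted p = 0.0796). Of the elongation and termination list in pDC 2 of 11 genes fell, beside 15.7% of all genes, and none rose. They were the elongation factor gene Eef2 and Eef2k, which encodes a kinase and not an elongation factor. Eef2k was scarce, with a median of 17.5 CPM in pDC (0 to 37.1).

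Against the untreated library, the 4 and 6 h libraries of a ligand gave member calls with CpG B and, with TMM scaling, with no other ligand; the ligands' changes were not tested against each other. The 4 late comparisons of a culture share that 1 untreated library, which has no replicate and is assumed to vary like the others, so each call rests on it. In moDC, Rpl9 of the large subunit was at 64.7 CPM untreated and at 36.9, 18.0 and 13.0 CPM after 1, 4 and 6 h of CpG B, a log2 change of -1.72 ± 0.517 at 4 and 6 h (edgeR adjusted p = 0.0463). It was the only member of 54 called lower there, where 1.86% of all genes were, and none of 54 was higher (4.63% of all). In pDC with CpG B, Rpl9 was at 60.9 CPM untreated and 53.1 and 37.0 CPM late, and gave -0.11 ± 0.429 (adjusted p = 0.898). The Rpl9 call was lost by DESeq2, without the filter and without either late library, with log2 changes of -1.51 to -1.98.

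In pDC with CpG B, Rps27l was at 238 CPM untreated and 277, 340 and 399 CPM at 1, 4 and 6 h, a log2 change of 0.96 ± 0.297 (edgeR adjusted p = 0.0259; 8.40% of all genes were higher). Rpl27a was at 162 CPM untreated and 138, 70.1 and 53.6 CPM, a log2 change of -1.05 ± 0.357 (edgeR adjusted p = 0.0418; 9.45% of all genes were lower). The Rps27l call was lost by column totals (0.63), without the filter and without either late library; that of Rpl27a was lost without the 6 h library (-0.76), without the filter and by DESeq2.

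In the other 6 late comparisons 0 of 54 members passed edgeR's test and 0 passed DESeq2. For late LPS in moDC, 4 members were higher and 0 lower at an unadjusted p below 0.05, and in pDC 1 was higher and 6 lower; of all genes 5.40% and 8.52% were called higher and 2.45% and 5.54% lower. For late PAM the unadjusted counts were 1 higher and 1 lower in moDC and 0 in pDC, beside 0.658% and 1.84% of all genes higher and 0.298% and 2.20% lower. For late CpG A they were 3 higher and 2 lower in moDC and 0 higher and 1 lower in pDC, beside 0.00% and 2.52% of all genes higher and 0.00% and 0.509% lower. By column totals late CpG B gave 5 members lower in moDC (4.69% of all genes) and 9 in pDC (14.3%). By column totals, late LPS in pDC gave 18 members lower (14.0% of all genes), with the median of all genes at -0.47 and of the members at -0.62, so late LPS in pDC gave calls on that scale and none with TMM.

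No member was called between ligands at matched times with all times in the fit. LPS against PAM gave 0 of 47 calls in moDC and 0 of 51 in pDC by edgeR and by DESeq2. At an unadjusted p below 0.05, 4 moDC members were higher with LPS and 0 pDC members differed. Over all genes 1.37% and 0.531% were higher with LPS and 0.0176% and 0.00% lower. With only the 4 and 6 h libraries, 3 pDC members were lower with LPS (3.51% of all genes). CpG B against CpG A gave 0 of 46 and 0 of 49 calls by both tools, with 0 and 1 member higher at an unadjusted p below 0.05, beside 2.32% and 0.00% of all genes higher and 0.108% and 0.00% lower.

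The perturbation libraries are single and shallow. The targeted genes were read first. Cebpb was at 58.5 CPM (3 counts) in the moDC library with its hairpin and 560 CPM (23 counts) with the control hairpin. Irf8 was at 361 CPM (24 counts) in the pDC library with its hairpin and 811 CPM (32 counts) with the control. In the library labelled Cebpb overexpression Cebpb was at 447 CPM, against 453 CPM in its control, so it was not higher there; whether 3′ reads of the vector are counted to the gene was not tested.

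The summed share of the members differed by at most 1.11-fold within a pair. With the Cebpb hairpin the share was 4.03% (95% exact binomial interval 3.86% to 4.1995%) against 3.94% (3.76% to 4.13%), a ratio of 1.02 (0.956 to 1.09). With the Irf8 hairpin it was 5.75% (5.57% to 5.93%) against 5.19% (4.97% to 5.42%), a ratio of 1.11 (1.05 to 1.17). In the library labelled Cebpb overexpression it was 5.29% (5.10% to 5.50%) against 4.83% (4.75% to 4.91%), a ratio of 1.10 (1.05 to 1.14). Intervals cover counting error only, and there is no replicate check.

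Per gene, log2 ratios were taken with 10 CPM added, among members reaching 100 CPM in either library. With the Cebpb hairpin 0 of 71 passed a fold of 2 in either direction, where 16.0% of all genes were higher and 18.9% lower; the extremes were Rpl28 (0.92) and Rps25 (0.73), and, on the lower side, Rpl27 (-0.92). With the Irf8 hairpin 3 of 74 were past a fold of 2 higher (12.9% of all genes) and 0 lower (22.5%). These were Rps2 at 7 against 1 count (ratio 4.15, interval 0.533 to 187), Rps28 at 616 against 254 CPM and Rpl8, named after its value was seen, at 1637 against 710 CPM; the lowest were Rps16 (-0.54) and Rpl10 (-0.52). In the library labelled Cebpb overexpression 0 of 74 passed in either direction (8.01% and 7.39% of all genes), with Rpl17 (0.82) and Rpl36 (0.71) highest and Rps12 (-0.43) and Rps27l (-0.41) lowest. Rps27l itself was at 305 CPM there and 408 CPM in the control.

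Among the sorted populations the members' share was highest in the progenitors and lowest in the monocytes. It was 10.5% in CDP, 10.4% in MP and 9.71% in MDP, the progenitors of the table. It was 8.81% in CD8+ DC and 8.34% in DN DC of the spleen. It was 6.88% in spleen pDC, 6.79% in the library labelled preDC, 6.38% in Ly6c+ monocytes and 5.72% in Ly6c- monocytes. With 1 library each, the exact binomial intervals (CDP 10.5% to 10.6%, MP 10.4% to 10.5%, pDC 6.85% to 6.90%, preDC 6.76% to 6.83%) cover counting error only, so no neighbours in this order can be said to differ between mice. The highest share was 1.84 times the lowest. Bone marrow and spleen populations did not separate, at means of 8.26% ± 2.20 (SD, n = 6) and 8.01% ± 1.01 (n = 3, exact permutation over populations, two-sided p = 0.881). No population came from both tissues, so tissue and cell type cannot be told apart, and the SD is the spread between cell types. The 8 stem and progenitor markers were highest in the progenitors, at 3377 CPM in MP, 2671 in MDP and 1809 in CDP against 43.1 to 868 CPM elsewhere. Kit and Flt3 are among these markers and encode the c-kit and Flk2 of the gates, so the sums are not independent of the sort. Within these groups they did not follow the order of the shares. CDP, with the highest share, had the lowest sum of the progenitors. The library labelled preDC, at 868 CPM, lay above CD8+ DC (693 CPM) and DN DC (540 CPM). The part of these markers in the shares was not tested.

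**Figure D4:**
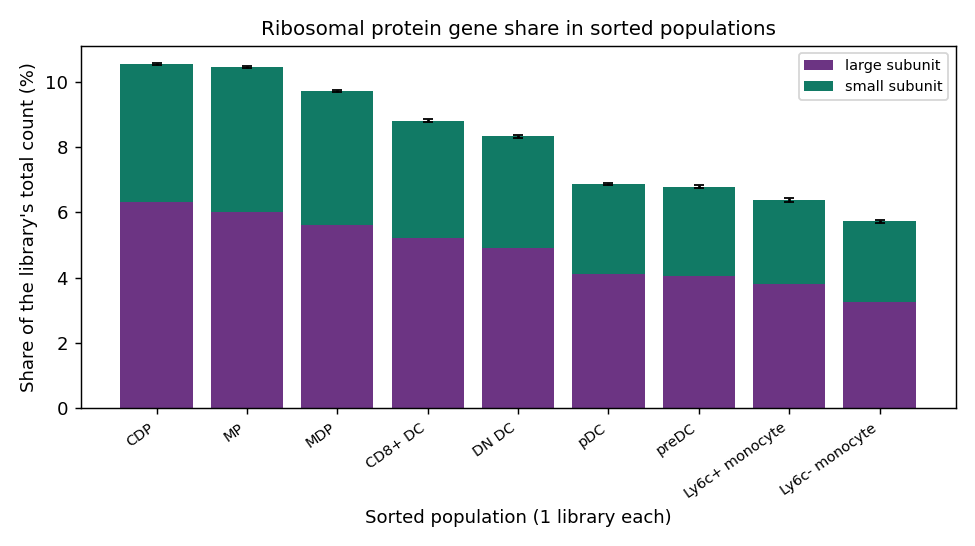
Share of total counts (%, y axis from 0) held by large-subunit (purple) and small-subunit (green) ribosomal protein genes in 9 sorted populations, 1 library each; the black bars are exact binomial 95% intervals of the sum. The sum goes from 10.5% in CDP to 5.72% in Ly6c- monocytes, and the large subunit holds the greater part in every population.

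Both subunits kept that direction. The large subunit held 6.32% in CDP and 3.26% in Ly6c- monocytes, and the small subunit 4.44% in MP and 2.46% in Ly6c- monocytes. Of 71 members reaching 100 CPM in some population, 29 were highest in CDP, 29 in MP, 6 in MDP, 3 in CD8+ DC, 2 in DN DC and 2 in pDC. They were lowest in Ly6c- monocytes (37), Ly6c+ monocytes (23), pDC (7) and the library labelled preDC (4). The median ratio of a gene's highest to lowest population was 2.27 for members and 4.26 for the 4148 genes reaching that level. The counts of highest and lowest populations were not made over those genes, so they show nothing particular to the members.

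Rps27l spanned the widest range, a ratio of 5.13. It was at 354 CPM in CDP, 301 in MDP, 212 in MP, 154 in the library labelled preDC, 123 in CD8+ DC, 109 in pDC, 108 in Ly6c+ monocytes, 107 in DN DC and 68.9 in Ly6c- monocytes. The progenitors stood highest. Rps27, which this table does detect, was at 173 CPM in pDC and 172 in CDP and lay between 58.4 and 120 CPM in the other 7 populations.

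Rps26, a small-subunit protein at the exit channel for messenger RNA, was at 2845 CPM in CDP and 592 CPM in Ly6c- monocytes, a ratio of 4.80. Rpl14 of the large subunit was at 4372 and 948 CPM in the same populations, a ratio of 4.61. The steadiest members were Rpl19 (1.44, from 1003 to 1446 CPM), Rps9 (1.52, from 2744 to 4170 CPM) and Rpl13 (1.53, from 1090 to 1663 CPM).

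The stalk genes differed in their peaks. Rplp1 was at 8048 CPM in CD8+ DC, above the 3139 to 5499 CPM of the other 8 populations. Rplp0 was highest in CDP (3825 CPM) and CD8+ DC (3798 CPM) and lowest in Ly6c- monocytes (1725 CPM). Rplp2 was highest in MP (1495 CPM) and lowest in Ly6c- monocytes (796 CPM). Rpsa ran from 862 CPM in Ly6c- monocytes to 1856 CPM in CDP, and Rps6 from 432 CPM in Ly6c- monocytes to 1082 CPM in MP. Rps27a was at 1041 CPM in CDP, above the 341 to 731 CPM of the others.

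**Figure D5:**
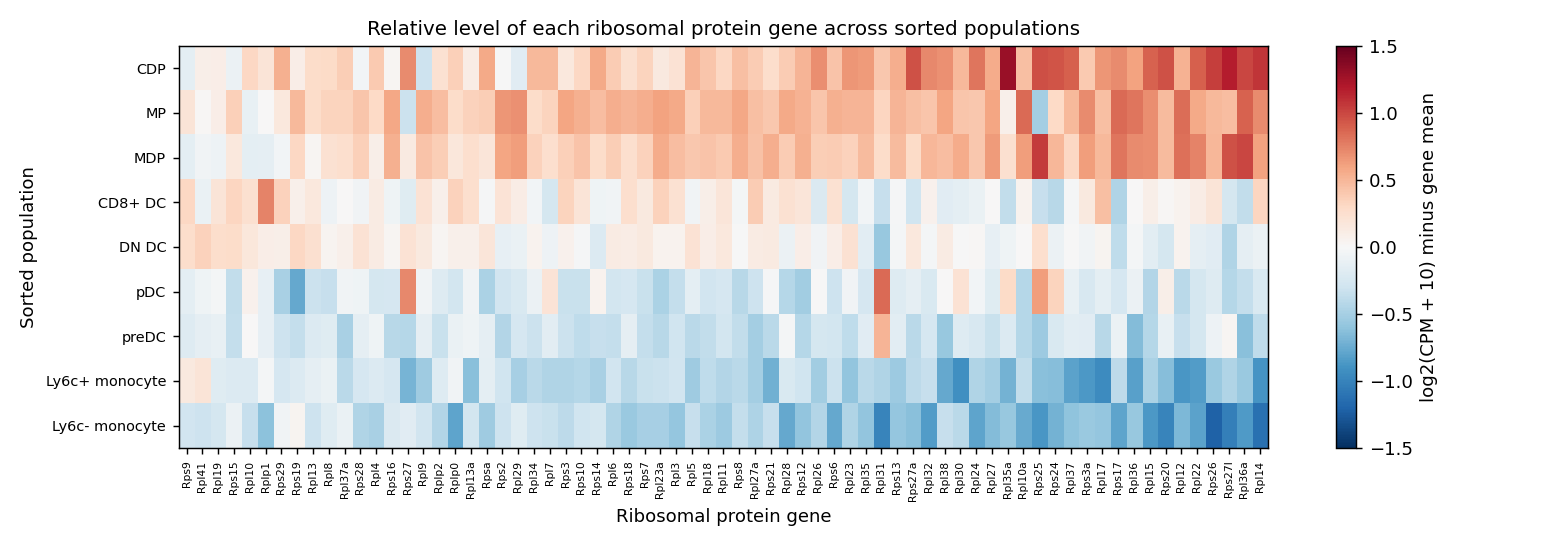
Level of 69 ribosomal protein genes (x axis) in 9 sorted populations (y axis), as log2(CPM + 10) minus the gene's mean, red above and blue below, ordered by the difference between the progenitor and monocyte rows. The 3 progenitor rows are mostly red and the 2 monocyte rows mostly blue, while single cells such as Rplp1 in CD8+ DC (8048 CPM) depart from it.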

How the data were processed

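Gene counts of the stimulation table were deposited by the authors as whole numbers. The sorted and perturbation tables hold estimated counts as deposited, which need not be whole and were rounded here. Per the submitters' processing notes, TopHat and the mm9 build were used. How genes were counted is not given in the sources used here. The nameless row was left out (0.187% to 0.938% of stimulation counts, at most 0.0167% elsewhere), as was 1 column of per-sample values that matched no sample. Genes with at least 20 CPM in 4 libraries were tested with edgeR 4.0.16 (quasi-likelihood, TMM, Benjamini-Hochberg, threshold 0.05; R 4.3.3, limma 3.58.1), with DESeq2 1.42.0 as an alternative. Shares were tested by exact permutation (SciPy 1.17.1). The edgeR fit was run on simulated data for moDC against pDC, late against 1 h in each culture and LPS against PAM in moDC. The other comparisons and the permutation tests were not simulated. Labels do not tie libraries to animals. Named members were the most abundant, those with the largest changes among calls or largest ratios, the stalk genes, Rpsa, Rps27a, Rps6 and paralog pairs; of each gene list, up to 4 with the largest changes, and Myc. Members and lists were chosen with earlier results of these data known. Some members that the rule would name are not reported here by name or drawn singly; they stay in the counts and sums.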

Additional observations from a re-analysis of the deposited data

How the results depend on the processing

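No paired analysis was possible because the labels give no replicate numbers and each group is 1 library; the condition block and the paired share test match libraries by ligand and time. The 35 member calls between moDC and pDC all held by column totals, by DESeq2, with TMM factors from other genes, without the condition block and without the CpG A 1 h libraries, the last chosen after seeing the data. With only 4 and 6 h the members lower in moDC numbered 22, against 34. By column totals the members called late against 1 h numbered 1 in moDC, against 0, and 12 in pDC, against 4; without the filter the pDC count was 2, and without each ligand in turn 1 to 4. For late CpG B in moDC the count of 1 became 5 by column totals, 0 by DESeq2, 0 without the filter and 0 without either late library. For late CpG B in pDC the count of 2 became 9 by column totals, 1 by DESeq2, 0 without the filter and 0 to 2 without a late library. Late LPS in pDC went from 0 to 18 by column totals, and LPS against PAM in pDC from 0 to 3 with only 4 and 6 h. The late change in share was -0.305 points in moDC and -0.844 in pDC, and 0.0202 and -0.261 as a share of the TMM size. Bone marrow minus spleen was -0.307 to 0.767 points when a population was left out, below 0 without pDC, CDP, MDP or MP. The highest to lowest sorted share, 1.84, was 1.95 over genes reaching 100 CPM, 1.93 without the 5 most abundant members and 1.65 to 1.84 with a population left out. The cause of these shifts was not tested. Depth limits low members: 1 count is 1.34 to 3.92 CPM in the stimulation and 3.81 to 25.4 CPM in the perturbation libraries.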
